A study of Homo sapiens with 12 samples.

Results

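The comparison described here sets human embryonic stem cells of the line CT2 after knockdown of JMJD1C beside CT2 cells given a mismatch short hairpin RNA (shRNA). It rests on 4 of the 12 arrays of the study, 2 with the knockdown and 2 with the mismatch shRNA, chosen by their labels alone. Total RNA was labelled with biotin and hybridised to Illumina bead arrays, on which each probe's brightness, its intensity, reports the level of 1 transcript. The other 8 arrays are 2 of untreated CT2 and 6 of a second line, H9, in the same 3 states. The untreated CT2 arrays are used only to see which of the 2 groups departed, and the H9 arrays serve to place each CT2 array between the lines and to compare responses. All 12 arrays entered 1 model, in which 13951 genes were tested, and 12736 of these were detected on at least 2 of the 4 CT2 knockdown and mismatch arrays. The labels give no hairpin sequence, and they do not say how the knockdown was delivered, for how long, or whether replicates were separate cultures. The p-values therefore measure only the spread between these arrays, which may be technical.

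JMJD1C, also called KDM3C, is a nuclear protein with a jumonji domain, the fold that in related enzymes removes methyl groups from histones. It belongs to the KDM3 family, whose members KDM3A and KDM3B act on methylated lysine 9 of histone H3, a mark of repressed chromatin. Embryonic stem cells keep their undifferentiated state with the transcription factors POU5F1, SOX2 and NANOG and, in human lines, with signalling through the activin and NODAL receptors. A mismatch hairpin enters the RNA interference machinery but is not meant to pair with the target, and it serves as the control for carrying a hairpin at all.

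One mismatch array stood apart before any gene was compared. Median intensity before normalization ran from 160.7 to 191.8 over the 6 CT2 arrays, and 44.83% to 46.88% of probes were detected. The lowest median was that of mismatch replicate 2. Its mean intensity, 1000.3, was also the lowest, where the other CT2 arrays ran from 1198.58 to 1467.59. Across genes, which are not independent replicates, the 2 CT2 mismatch arrays correlated with r = 0.9675, the lowest value of any group, beside 0.9869 for the knockdown pair and 0.9909 for the untreated pair. The closest array to CT2 mismatch replicate 2 was an untreated H9 array (r = 0.9715), whereas mismatch replicate 1 was closest to CT2 knockdown replicate 1 (r = 0.9759). On the 1230 genes that passed the test and differed at least 2-fold between the untreated lines, each array was given a place from 0, the untreated CT2 mean, to 1, the untreated H9 mean. CT2 mismatch replicate 2 lay at a median of 0.858 and mismatch replicate 1 at 0.357, while the knockdown arrays lay at 0.375 and 0.152. The H9 mismatch arrays lay at 0.72 and 0.586 and the H9 knockdown arrays at 0.613 and 0.769. Untreated arrays lie near 0 and 1 by construction. These 1230 genes were 8.82% of all genes tested and 154 of the 638 genes called between knockdown and mismatch (24.1%), and in 133 of the 154 the mismatch mean lay on the H9 side of the knockdown mean. What placed that array nearer H9 was not tested, and counts are given below with and without it.

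**Figure D1:**
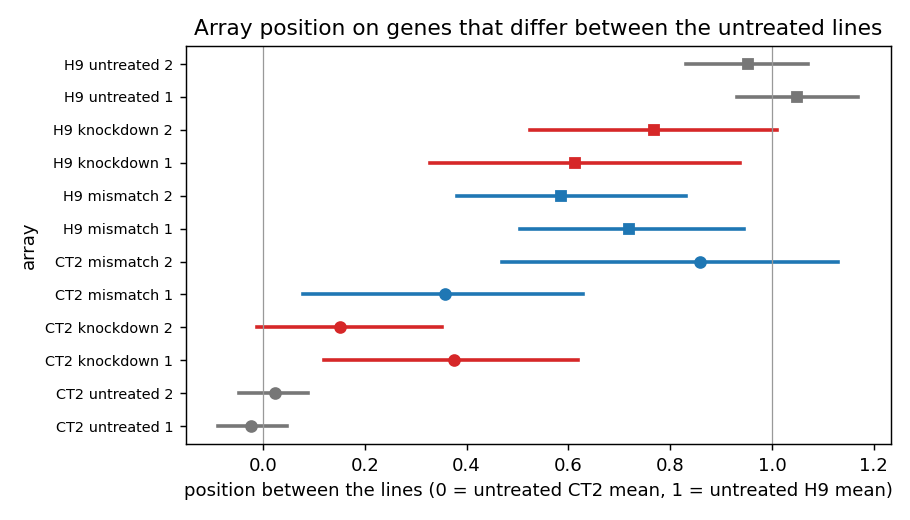
Each point is the median, and each line the quartile range, of an array's position over the 1230 genes that differ between the untreated lines, on the x axis from 0 (untreated CT2 mean) to 1 (untreated H9 mean); circles are CT2 arrays and squares H9 arrays, with untreated in grey, mismatch in blue and knockdown in red. CT2 mismatch replicate 2 sits at 0.858, among the H9 arrays, and the other 3 hairpin arrays of CT2 sit between 0.152 and 0.375.

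All CT2 arrays carried the RNA of undifferentiated stem cells. Each of 10 markers of that state, POU5F1, SOX2, NANOG, LIN28A, DNMT3B, TDGF1, L1TD1, ZFP42, SALL4 and DPPA4, was detected in untreated CT2, and their mean log2 intensity ran from 13.26 to 13.47 over the 6 arrays. Of fibroblast and stroma markers 7 of 10 were measured, with a mean between 8.37 and 9.001, lowest on mismatch replicate 2. Of 10 endothelial markers 3 were measured, of 11 blood markers 4, and of 10 epithelial markers 4. Between knockdown and mismatch none of these passed in limma's fit, with 1 blood marker at an unadjusted p under 0.05. Of all 13951 genes tested 2856 had such a p. In RNA from a whole culture, fewer cells of a type and less RNA per cell cannot be told apart.

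The target of the knockdown was lower. JMJD1C read 11.45 and 11.92 untreated (log2 intensity, replicate 1 and then 2, here and below), 12.04 and 12.36 with mismatch and 10.75 and 10.69 with the knockdown. Both knockdown arrays lay below the other 4, and the mismatch arrays lay slightly above the untreated ones. Against mismatch JMJD1C fell by 1.48 ± 0.27 on the log2 scale, to 35.9% of the mismatch level (standard error from limma's fit, here and below; adjusted p = 0.00718), and a second detected probe of the gene gave -1.64. Against untreated CT2 its log2 difference was -0.97, which did not pass (adjusted p = 0.181). Without knockdown replicate 2 the log2 difference was -1.45 and the call was lost (adjusted p = 0.110). Its paralogues did not pass, with log2 differences of -0.24 ± 0.31 for KDM3A (adjusted p = 0.728) and 0.39 ± 0.21 for KDM3B (adjusted p = 0.320). Of 17 measured jumonji demethylases 0 rose and 2 fell, 11.8% called beside 4.57% of all genes tested. They were JMJD1C, the target itself, and the H3K4 demethylase gene KDM5C. KDM5C read 7.26 and 7.53 untreated, 8.87 and 10.35 with mismatch and 8.53 and 7.82 with the knockdown. Its knockdown arrays lay between the other groups, and its call (-1.43 ± 0.39, adjusted p = 0.0497) was lost without mismatch replicate 2 (-0.69, adjusted p = 0.328), without knockdown replicate 1 (-1.79, adjusted p = 0.0711) or without knockdown replicate 2 (-1.08, adjusted p = 0.398).

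Over all genes, high among the rises were the NODAL antagonist LEFTY2 and 4 genes at background on both mismatch arrays, CSRP1, MTLN, QNG1 and TRIM68, and the falls were led by SYT11 and the chemokine CXCL5. In all, 638 of 13951 genes passed the threshold of 0.05 on the adjusted p (4.57%). Of these 386 were higher with the knockdown than with mismatch (2.77% of genes tested), 235 of them at least 2-fold, and 252 were lower (1.81%), 179 of them at least 2-fold. In all 638 the 2 knockdown arrays lay beyond the 2 mismatch arrays, which held for 44.3% of all genes tested. The median log2 difference of all genes was 0.03. The count depended on single arrays: there were 348 calls without mismatch replicate 2 (184 higher, 164 lower), 1828 without mismatch replicate 1, 246 without knockdown replicate 1 and 40 without knockdown replicate 2. Of the 638 genes 238 were also called without mismatch replicate 2. Called rises had a median of 0.92 over mismatch replicate 1 and of 1.24 over mismatch replicate 2 on the log2 scale, and called falls lay at -1.08 and -1.19.

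For most called genes it was the mismatch arrays, not the knockdown arrays, that differed from untreated CT2. A called gene was placed on the mismatch side where both mismatch arrays lay beyond all 4 knockdown and untreated arrays and the untreated mean was nearer the knockdown mean, and on the knockdown side in the mirror case. By this rule 534 of the 638 called genes (83.7%) were on the mismatch side, 346 rises and 188 falls, 103 (16.14%) were on the knockdown side, 39 rises and 64 falls, and 1, ZNF707, was unresolved. Over all genes tested, called or not, 29% were on the mismatch side and 9.71% on the knockdown side. The sides are not exclusive of a lesser move by the other group: in 199 called genes, 119 rises and 80 falls, the untreated arrays lay between the groups with both beyond them, and 148 of these were counted on the mismatch side. The same placing held for 685 of all genes tested (4.91%). Given side by side, since they share arrays with the main comparison, the test of mismatch against untreated called 1538 genes (11%) and that of knockdown against untreated called 44 (0.315%). Of the mismatch-side genes 442 also passed mismatch against untreated in the opposite direction, and of the knockdown-side genes 19 also passed knockdown against untreated in the same direction. Without mismatch replicate 2 the called genes divided into 281 on the mismatch side and 67 on the knockdown side, without mismatch replicate 1 the mismatch side held 1696, without knockdown replicate 1 they divided into 203 and 43, and without knockdown replicate 2 into 27 and 13.

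**Figure D2:**
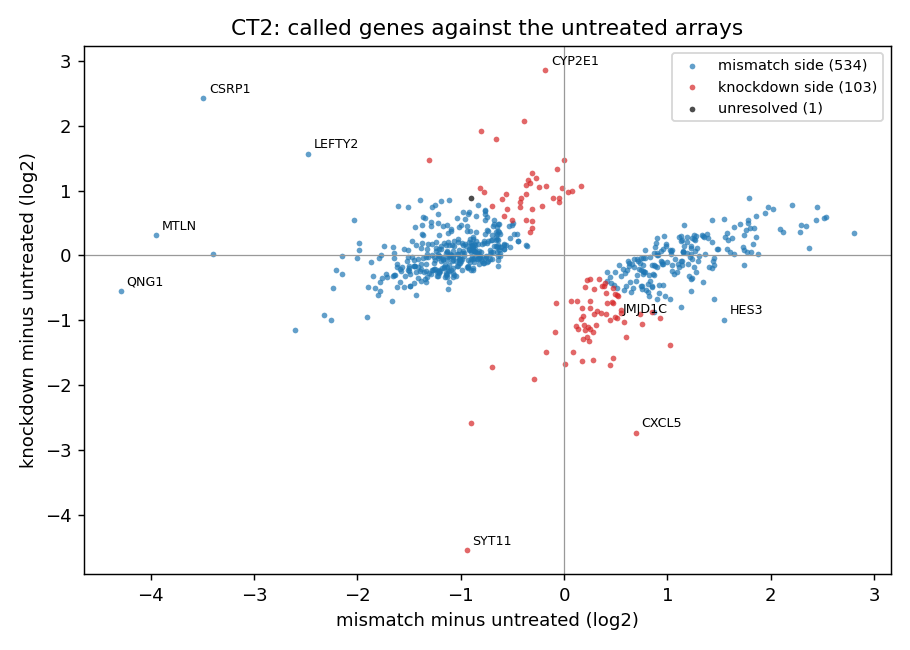
Each point is 1 of the 638 genes called between knockdown and mismatch in CT2, with mismatch minus untreated on the x axis and knockdown minus untreated on the y axis (both differences of log2 intensity, which share the untreated arrays), coloured by side. By the rule, the 534 mismatch-side genes lie farther from 0 on the x axis than on the y axis. Some also stand away from 0 on the y axis, such as CSRP1 (2.42) and LEFTY2 (1.57), and in 148 the knockdown arrays lay beyond both untreated arrays. The 103 knockdown-side genes, SYT11 and CXCL5 among them, spread along the y axis.

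Among genes that departed on the knockdown arrays, the largest falls were those of SYT11, a synaptotagmin of vesicle traffic, and CXCL5, a chemokine that attracts neutrophils. SYT11 read 12.06 and 11.99 untreated, 11.44 and 10.74 with mismatch and 7.35 and 7.63 with the knockdown. A bright gene in the untreated line thus stood far lower on both knockdown arrays, and the mismatch arrays were also somewhat below the untreated ones. SYT11 fell by 3.60 ± 0.30 on the log2 scale, to 8.24% of the mismatch level (adjusted p = 2.70e-06), and differed from untreated by -4.54 (adjusted p = 2.84e-07). CXCL5 read 8.22 and 8.16 untreated, 8.68 and 9.09 with mismatch, and 5.26 and 5.66 with the knockdown. It was not detected on either knockdown array, so the fall is given as a bound, at least 7.39-fold lower than mismatch (adjusted p = 2.70e-06). Here and below such a bound sets the mean of the brighter group against the lowest signal detected on the arrays of the dimmer group, or the probe's own signal where that was higher. Both genes were called without each of the 4 arrays in turn, and the log2 difference of SYT11 then ran from -3.95 to -3.25.

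The other 8 genes complete the 10 largest fitted falls on this side. NAP1L6P, a pseudogene of the nucleosome assembly protein family whose probe may also report related copies, read 8.05 and 8.45 untreated, 9.51 and 9.04 with mismatch and 7.02 and 6.72 with the knockdown. It fell by 2.41 ± 0.31 (adjusted p = 4.51e-04), with the untreated arrays between the other groups. DPPA5, an RNA-binding protein of pluripotent and germ cells, read 6.53 and 7.11 untreated, 7.64 and 6.89 with mismatch and 5.06 and 5.21 with the knockdown, where it was at background. It was at least 2.41-fold lower (adjusted p = 0.00519), a call lost without knockdown replicate 2 (adjusted p = 0.0778). EID3, a protein of the SMC5/6 complex best known from testis, read 7.09 and 6.97, then 7.10 and 7.89, and on the knockdown arrays 5.28 and 5.61, at least 2.82-fold below mismatch (adjusted p = 0.00409). ORM2, a plasma protein of the acute phase with a near-identical neighbour in ORM1, was also at background on both knockdown arrays and at least 3.22-fold lower (adjusted p = 0.00627). The remaining falls were those of C19orf33 (-1.89), the mitochondrial fission regulator MTFR1 (-1.88), the secreted peptide precursor ECRG4 (-1.85) and the cytokine IL11 (-1.81), with adjusted p between 0.00519 and 0.0132. By the rule for this side, both knockdown arrays lay below the 4 others in each of them. Of the 10 falls, 9 were called without mismatch replicate 2, 10 without mismatch replicate 1, 7 without knockdown replicate 1 and 4 without knockdown replicate 2, and the adjusted p of those lost reached 0.174.

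Among rises on the knockdown side, CYP2E1, a cytochrome P450 of liver that oxidises ethanol, read 5.69 and 5.04 untreated, 5.06 and 5.31 with mismatch and 7.98 and 8.47 with the knockdown. It was detected on the knockdown arrays and on no other CT2 array, at least 4.65-fold higher than mismatch and at least 4.60-fold higher than untreated. CYP2E1 was the 1 gene that passed the filter on low values through the knockdown arrays alone, so it had to differ, and it is given as a description with no test. The counts of calls kept by the 10 largest rises on this side, given below, include it. LRFN5, a synaptic adhesion protein, read 7.86 and 8.18 untreated, 6.60 and 6.83 with mismatch and 9.48 and 9.50 with the knockdown. Its groups formed 3 steps without overlap, and it rose by 2.77 ± 0.29 (adjusted p = 6.23e-05). PIWIL2, an Argonaute-family protein that binds small RNAs in the germ line, read 6.60 and 6.06 untreated, 5.88 and 5.46 with mismatch and 8.36 and 7.91 with the knockdown. It was at background on both mismatch arrays and at least 4.37-fold higher with the knockdown (adjusted p = 0.00156). FAM24B likewise had no detected signal with mismatch and was at least 4.15-fold higher (adjusted p = 2.04e-04). ADAMTSL2, a secreted protein of the extracellular matrix, read 6.30 and 5.67, then 6.00 and 5.19, and with the knockdown 7.76 and 8.33, and rose by 2.45 ± 0.35 (adjusted p = 0.00153).

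The other 5 of the 10 largest rises on this side were smaller. They were SERPINA5, a serine protease inhibitor of plasma and semen (1.85 ± 0.38), CAVIN3, a coat protein of caveolae (1.74 ± 0.27), TSPYL5 (1.59 ± 0.26), the platelet-derived growth factor receptor PDGFRB (1.52 ± 0.39) and the cytoplasmic tyrosine kinase FES (1.501 ± 0.30), with adjusted p between 0.00290 and 0.0377. PDGFRB is also a stromal marker and read 7.54 and 8.14 untreated, 8.19 and 6.79 with mismatch and 9.28 and 8.74 with the knockdown. PDGFRB was the only 1 of 7 measured fibroblast and stroma markers to pass, 14.3% called beside 4.57% of all genes tested. The mean of those 7 markers was 9.001 and 8.37 with mismatch and 8.98 and 8.86 with the knockdown, and their part in the result was not tested. Of the 10 rises 8 were called without mismatch replicate 2, SERPINA5 (adjusted p = 0.0827) and PDGFRB (adjusted p = 0.229) being lost. All 10 were called without mismatch replicate 1, 8 without knockdown replicate 1 and 4 without knockdown replicate 2, with adjusted p up to 0.203 among those lost.

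**Figure D3:**
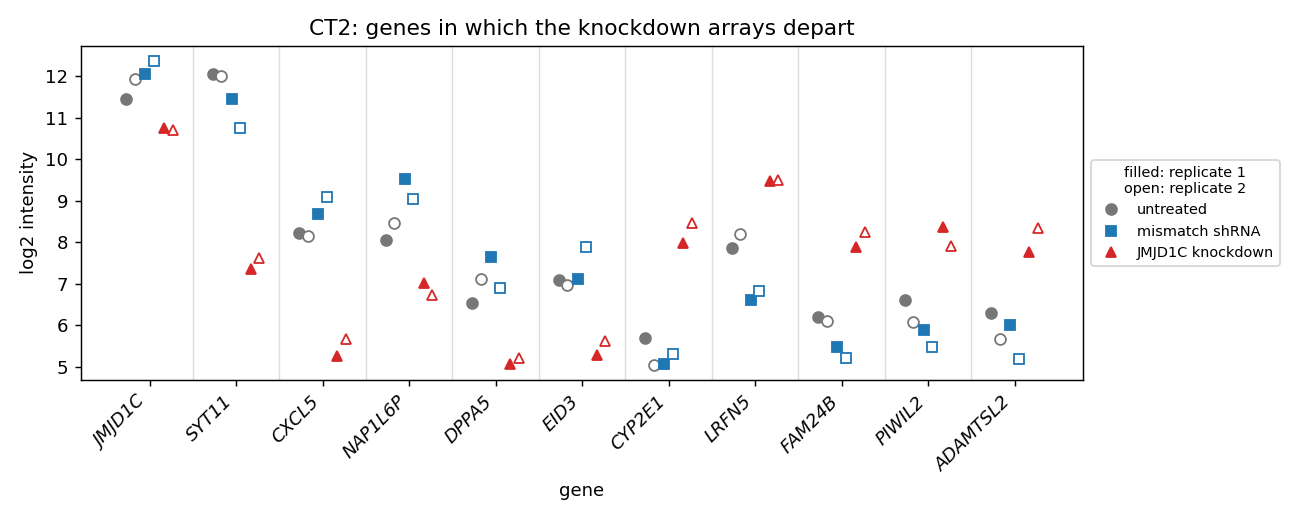
Log2 intensity (y axis) of JMJD1C and 10 of the largest knockdown-side changes (x axis) on each of the 6 CT2 arrays, with filled symbols for replicate 1 and open ones for replicate 2. The red knockdown points lie below the other 4 for JMJD1C, SYT11, CXCL5, NAP1L6P, DPPA5 and EID3 and above them for CYP2E1, LRFN5, FAM24B, PIWIL2 and ADAMTSL2. For the 10 genes beside JMJD1C this placing follows from the rule for the side.

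A set of 4 genes on the mismatch side was silent on both mismatch arrays and far higher with the knockdown. CSRP1, a LIM-domain protein of the actin cytoskeleton known from smooth muscle, read 8.63 and 9.43 untreated, 5.41 and 5.67 with mismatch and 11.56 and 11.35 with the knockdown. It had no detected signal on the mismatch arrays and was brightest on the knockdown arrays, at least 43.5-fold higher (adjusted p = 6.14e-08), and it also differed from untreated by 2.42 on the log2 scale (adjusted p = 0.00208). MTLN, which encodes the mitochondrial microprotein mitoregulin, read 9.60 and 9.49 untreated, 5.85 and 5.35 with mismatch and 10.004 and 9.72 with the knockdown. QNG1, an enzyme that salvages the transfer RNA base queuine, read 9.75 and 9.65, then 5.39 and 5.42, and with the knockdown 9.35 and 8.96. TRIM68, a ubiquitin ligase of the tripartite motif family, read 8.43 and 8.45, then 5.10 and 4.99, and with the knockdown 8.64 and 8.29. In these last 3 genes the knockdown arrays lay near the untreated level, while both mismatch arrays, not replicate 2 alone, were at background. With the knockdown MTLN was at least 14.5-fold higher than with mismatch (adjusted p = 1.75e-07), QNG1 at least 8.87-fold (adjusted p = 2.64e-06) and TRIM68 at least 5.48-fold (adjusted p = 1.01e-06). All 4 calls held without any 1 of the 4 arrays. On untreated H9 arrays CSRP1 read 5.57 and 5.65 and QNG1 4.80 and 5.28, at background as with mismatch in CT2. MTLN read 9.37 and 9.89 on those H9 arrays and TRIM68 8.77 and 9.002, so both were detected there. Whether this bears on the place of the mismatch arrays between the lines was not tested.

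The upstream sequences of these 4 genes are shown because the genes were silent together on the mismatch arrays. Each is the 250 bases before the annotated start, taken from RefSeq for GRCh38.p14, 5′ to 3′ on the strand of the gene, with the dinucleotide CG in capitals, the site at which human promoters can be methylated. All 4 genes lie on the minus strand, CSRP1 at chr1:201507124-201507373, MTLN at chr2:110212548-110212797, QNG1 at chr9:83956743-83956992 and TRIM68 at chr11:4608232-4608481.
CSRP1: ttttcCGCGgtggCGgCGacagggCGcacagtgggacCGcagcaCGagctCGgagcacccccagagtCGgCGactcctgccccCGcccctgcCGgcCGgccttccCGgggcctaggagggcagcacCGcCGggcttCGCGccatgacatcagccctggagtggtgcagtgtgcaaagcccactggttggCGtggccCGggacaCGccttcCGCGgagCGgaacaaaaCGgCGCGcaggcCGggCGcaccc
MTLN: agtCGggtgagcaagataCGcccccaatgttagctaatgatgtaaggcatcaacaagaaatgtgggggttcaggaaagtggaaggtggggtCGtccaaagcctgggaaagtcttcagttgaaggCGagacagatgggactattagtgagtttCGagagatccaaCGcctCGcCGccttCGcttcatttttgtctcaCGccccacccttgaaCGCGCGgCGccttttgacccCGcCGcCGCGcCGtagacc
QNG1: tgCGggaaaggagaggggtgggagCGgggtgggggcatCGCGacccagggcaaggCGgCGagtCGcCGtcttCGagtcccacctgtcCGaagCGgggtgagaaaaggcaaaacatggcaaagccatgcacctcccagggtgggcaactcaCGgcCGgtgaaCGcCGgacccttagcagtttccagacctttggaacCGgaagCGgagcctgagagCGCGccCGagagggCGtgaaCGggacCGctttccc
TRIM68: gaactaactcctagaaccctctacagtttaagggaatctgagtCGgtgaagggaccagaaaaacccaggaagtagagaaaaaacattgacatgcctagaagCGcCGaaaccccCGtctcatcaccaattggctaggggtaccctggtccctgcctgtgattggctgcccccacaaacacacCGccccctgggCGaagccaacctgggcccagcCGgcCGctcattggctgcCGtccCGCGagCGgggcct
These windows hold 29, 19, 23 and 12 CG dinucleotides, where the median over the 11017 tested genes with a sequence is 20, and 22.4%, 56.1%, 41.4% and 76.9% of those windows hold at least as many. No measurement here reads methylation. For comparison, the genes with the largest falls on the knockdown side have windows with 19 CG dinucleotides for SYT11 (plus strand, chr1:155859317-155859566) and 6 for CXCL5 (minus strand, chr4:73998678-73998927).
SYT11: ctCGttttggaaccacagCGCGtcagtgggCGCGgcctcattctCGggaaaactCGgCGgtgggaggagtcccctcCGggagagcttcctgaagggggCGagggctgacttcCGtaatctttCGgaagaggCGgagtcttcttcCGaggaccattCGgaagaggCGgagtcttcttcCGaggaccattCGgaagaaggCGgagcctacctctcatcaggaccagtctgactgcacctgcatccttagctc
CXCL5: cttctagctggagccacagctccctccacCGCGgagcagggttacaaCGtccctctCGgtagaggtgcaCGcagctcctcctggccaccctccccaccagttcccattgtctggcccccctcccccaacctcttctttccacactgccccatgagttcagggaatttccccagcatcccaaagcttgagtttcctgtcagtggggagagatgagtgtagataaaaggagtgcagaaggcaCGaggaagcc
Both of these windows hold fewer than the median.

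Silence on the mismatch arrays was wider than these 4 genes. In all, 59 genes were detected on both untreated and both knockdown arrays and on neither mismatch array, and 17 of them passed the test. This set and those below were chosen by detection on the same arrays, so the counts that passed are a description. Among the 17, SLC7A11, the cystine importer, read 7.20 and 6.82 untreated, 5.65 and 5.35 with mismatch and 7.77 and 7.72 with the knockdown, at least 3.35-fold higher (adjusted p = 0.00146). SLC7A11 was named after its values were seen. Of the 17 genes 14 had an upstream window, with 3 to 34 CG dinucleotides and a median of 15.5. The mirror set, silent on both knockdown arrays and detected on the other 4, held 29 genes, of which 5 passed: CXCL5, DPPA5, EID3, ORM2 and FAM20A. Detected with mismatch and on no other CT2 array were 73 genes, of which 13 passed, among them CACNA1F, PRSS22, TMEM130 and WHRN, which no other array of the study detected and which therefore had to differ. Detected with the knockdown and on no other CT2 array were 33, of which 2 passed, CYP2E1 and the histone gene H3C1.

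The largest falls on the mismatch side were genes that stood high on the mismatch arrays, most of all on replicate 2. HES3, a repressor of the HES family of neural precursors, read 8.64 and 7.54 untreated, 9.05 and 10.23 with mismatch and 7.40 and 6.80 with the knockdown, and fell by 2.54 ± 0.42 (adjusted p = 0.00477). WFIKKN1, a secreted protein that binds growth factors of the myostatin group, read 5.24 and 5.24 untreated, 7.65 and 8.44 with mismatch and 5.96 and 5.22 with the knockdown. It fell by 2.46 ± 0.38 (adjusted p = 0.00229) and was not detected in untreated cells. OLFM2, a secreted olfactomedin, read 7.26 and 6.94 untreated, 8.69 and 10.25 with mismatch and 7.54 and 6.90 with the knockdown, and fell by 2.25 ± 0.42 (adjusted p = 0.00857). For OLFM2 the 2 mismatch arrays differed from each other by more than replicate 1 differed from the knockdown mean. Of the 5 falls that lead this side, which also include UTF1 and NRARP described below, 3 were called without mismatch replicate 2, 4 without knockdown replicate 1 and 0 without knockdown replicate 2 (adjusted p from 0.0778 to 0.211).

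**Figure D4:**
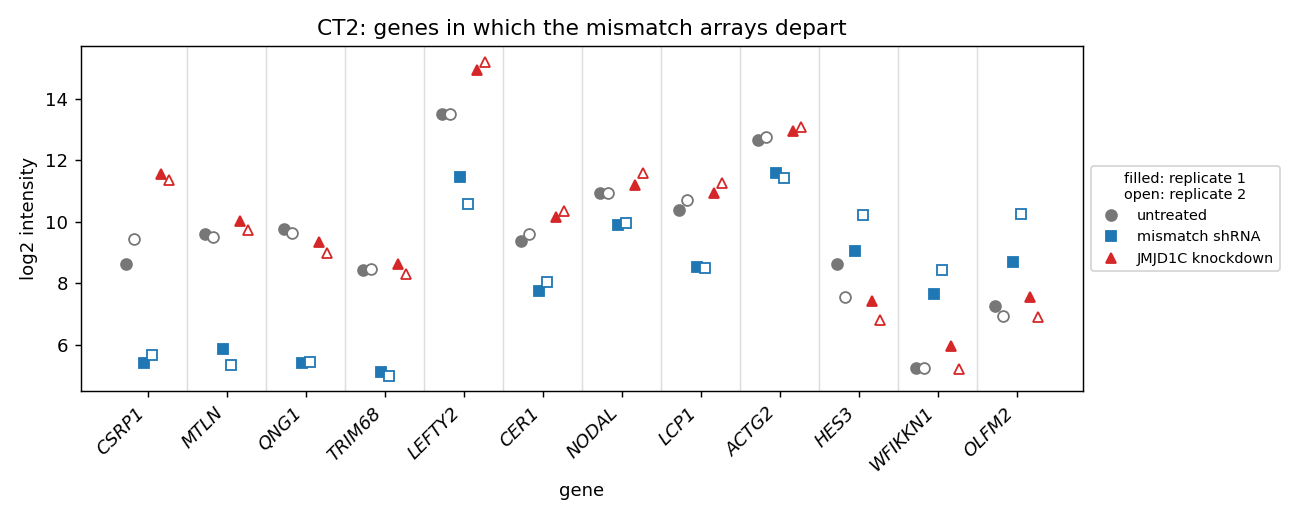
Log2 intensity (y axis) of 12 genes called between knockdown and mismatch (x axis) on each of the 6 CT2 arrays, with filled symbols for replicate 1 and open ones for replicate 2. The blue mismatch points stand apart from the untreated points, below them for CSRP1 to ACTG2 and above them for HES3, WFIKKN1 and OLFM2, and the red points of CSRP1 and LEFTY2 also lie well above the untreated ones.

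Genes of NODAL and activin signalling rose where they were called. Of 18 measured members of that list 5 rose, 0 fell and 13 did not pass, 27.8% called beside 4.57% of all genes tested. That share of all genes stands beside the counts of the lists below as well. The median log2 difference was 0.22 beside 0.03 for all genes. LEFTY2, a secreted antagonist of NODAL that the pathway itself induces, read 13.51 and 13.49 untreated, 11.46 and 10.59 with mismatch and 14.93 and 15.20 with the knockdown. The 3 groups did not overlap, with the knockdown highest and mismatch lowest, and LEFTY2 rose by 4.04 ± 0.24, a 16.5-fold difference (adjusted p = 1.16e-07). Its difference from untreated was 1.57 for the knockdown (adjusted p = 0.00682) and -2.48 for mismatch (adjusted p = 3.34e-05). The neighbouring paralogue LEFTY1 read 12.92 and 13.38, then 13.88 and 14.41, and with the knockdown 14.45 and 14.11, and did not pass (0.13 ± 0.24, adjusted p = 0.810). The 2 LEFTY transcripts are near-identical, so how far each probe reports only its own gene is uncertain.

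CER1, a secreted antagonist of NODAL and BMP ligands, read 9.38 and 9.58 untreated, 7.73 and 8.03 with mismatch and 10.14 and 10.36 with the knockdown, and rose by 2.37 ± 0.25 (adjusted p = 6.44e-05). The ligand NODAL itself read 10.94 and 10.92, then 9.88 and 9.95, and with the knockdown 11.18 and 11.57, a rise of 1.46 ± 0.22 (adjusted p = 0.00212). Against untreated, CER1 differed by -1.60 with mismatch and 0.77 with the knockdown, and NODAL by -1.02 and 0.44, so that both stood lowest with mismatch. PMEPA1, which restrains SMAD signalling, rose by 1.52 ± 0.27 (adjusted p = 0.00620), and INHBE, an inhibin subunit and the fifth called member, by 1.46 ± 0.35 (adjusted p = 0.0297). Without mismatch replicate 2 the list had 4 rises and 0 falls, and without knockdown replicate 2 it had 3 and 0. NODAL was lost without knockdown replicate 2 (adjusted p = 0.0754) and PMEPA1 without knockdown replicate 1 (adjusted p = 0.0679), while LEFTY2 and CER1 were called without each array in turn.

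The window before CER1 is shown because its gene is known as a NODAL target and because it carries the letters TGTNNATT, a pattern read by the SMAD partner FOXH1, searched on both strands. It lies on the minus strand at chr9:14722734-14722983, from RefSeq for GRCh38.p14, and capitals mark the 2 matches.
CER1: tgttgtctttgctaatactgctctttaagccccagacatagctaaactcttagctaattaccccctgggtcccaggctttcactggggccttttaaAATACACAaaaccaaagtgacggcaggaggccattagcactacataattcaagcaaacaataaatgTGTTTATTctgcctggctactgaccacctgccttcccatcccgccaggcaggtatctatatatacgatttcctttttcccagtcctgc
Of the 5 called members of the list 3 had a window, and 1 of these, that of CER1, held a match, where 5.3% of the windows of all tested genes with a sequence hold at least 1. NODAL and PMEPA1 were without a match in these 250 bases. A match describes the letters alone, and no binding was measured.

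The primitive streak list shares NODAL and CER1 with the list above, and the endoderm list shares CER1. Of 11 measured primitive streak and mesoderm genes 3 rose and 0 fell, namely NODAL, CER1 and the ligand gene WNT3. WNT3 read 8.14 and 8.45 untreated, 7.33 and 6.82 with mismatch and 8.46 and 8.18 with the knockdown, and its rise of 1.25 ± 0.30 (adjusted p = 0.0287) was lost without mismatch replicate 2, knockdown replicate 1 or knockdown replicate 2. It was also the only 1 of 14 measured WNT targets and antagonists to pass. Of 8 measured endoderm genes CER1 and AFP rose and KIT fell. AFP, the alpha-fetoprotein of yolk sac and fetal liver, read 9.92 and 10.18 untreated, 8.58 and 8.78 with mismatch and 10.65 and 10.64 with the knockdown, and rose by 1.96 ± 0.26 (adjusted p = 7.17e-04). KIT, the receptor for stem cell factor, read 9.74 and 9.85, then 10.68 and 10.42, and with the knockdown 9.38 and 9.17, and fell by 1.28 ± 0.23 (adjusted p = 0.00611). Of 14 measured BMP signalling and ID genes only the BMP pseudoreceptor BAMBI rose (0.78 ± 0.20, adjusted p = 0.0397), and its call was lost without mismatch replicate 2 (0.60, adjusted p = 0.183) and without either knockdown array. With mismatch replicate 2 left out the BMP list had 0 rises and 1 fall, the streak list 2 and 0 and the endoderm list 2 and 1, and without knockdown replicate 2 they had 0 and 0, 1 and 0, and 2 and 0. Of 15 measured trophoblast and amnion genes 0 passed in limma's fit, with 0 at an unadjusted p under 0.05. Of all 13951 genes tested 2856 had such a p.

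Of 21 measured muscle and contractile genes 7 rose and 1 fell, 38.1% called beside 4.57% of all genes tested. The signs were mixed over the list, with 11 of 21 log2 differences positive and a median of 0.24, and all 8 called members were on the mismatch side. Beside CSRP1, ACTG2, the smooth muscle gamma-actin, read 12.65 and 12.76 untreated, 11.57 and 11.42 with mismatch and 12.96 and 13.08 with the knockdown, and rose by 1.52 ± 0.17 (adjusted p = 9.93e-05). TAGLN, which binds actin in smooth muscle, read 14.63 and 15.00, then 13.93 and 13.48, and with the knockdown 14.97 and 14.98, a rise of 1.27 ± 0.19 (adjusted p = 0.00174). ACTA1, the skeletal muscle alpha-actin, read 14.95 and 14.89, then 14.16 and 13.87, and with the knockdown 14.95 and 15.00, a rise of 0.96 ± 0.14 (adjusted p = 0.00198). In these 3 genes the knockdown mean differed from the untreated mean by 0.31, 0.16 and 0.05, and mismatch was the low group. The actin genes are close in sequence, so a probe of one may report part of another. The other rises were those of KCNMB1, a potassium channel subunit of smooth muscle (2.25 ± 0.35), the atrial myosin light chain MYL7 (1.59 ± 0.39) and the calponin CNN2 (0.87 ± 0.22), with adjusted p from 0.00248 to 0.0377. TNNI3, the cardiac troponin I, fell by 1.22 ± 0.25 (adjusted p = 0.0132), from 9.82 and 9.94 with mismatch to 8.73 and 8.58, around an untreated level of 9.15 and 9.09. The list had 5 rises and 1 fall without mismatch replicate 2 and 3 rises and 0 falls without knockdown replicate 2.

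Replication-dependent histone genes, whose messages are made in S phase, had 5 rises and 0 falls among 25 measured members, 20% called beside 4.57% of all genes tested. Of the 25 log2 differences 24 were positive, with a median of 0.55, where 52.5% of all genes tested were positive, with a median of 0.03. H3C8 read 6.73 and 6.93 untreated, 5.91 and 5.20 with mismatch, where it was at background, and 7.29 and 7.85 with the knockdown, at least 2.96-fold higher (adjusted p = 0.00420). H4C8 read 8.49 and 8.82, then 7.71 and 7.02, and with the knockdown 8.81 and 9.42, a rise of 1.75 ± 0.32 (adjusted p = 0.00660). H2AC6, the 1 called histone on the knockdown side, read 9.04 and 9.02, then 8.73 and 8.60, and with the knockdown 9.70 and 10.26, a rise of 1.32 ± 0.25 (adjusted p = 0.00763). H2BC5 rose by 1.30 ± 0.26 (adjusted p = 0.0119) and H2BC11 was at least 2.83-fold higher (adjusted p = 0.0142). Knockdown replicate 2 was the higher of the knockdown arrays in all 5, and without it 0 of the 25 passed, while without mismatch replicate 2 there were 4 rises and 0 falls. Histone genes occur in near-identical copies, so which copy a probe reports is uncertain.

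Of 35 measured G1/S and DNA replication genes 3 rose and 0 fell, with a median of 0.36: the helicase subunit MCM7 (0.76 ± 0.15, adjusted p = 0.0109), the flap endonuclease FEN1 (0.80 ± 0.19, adjusted p = 0.0271) and the cyclin CCNE1 (0.73 ± 0.19, adjusted p = 0.0432). MCM7 read 14.76 and 14.63 untreated, 13.82 and 13.71 with mismatch and 14.35 and 14.70 with the knockdown, so mismatch was the low group. Of 35 measured G2/M genes 2 rose and 2 fell, with a median of -0.16. The called share was 8.57% of the G1/S list and 11.4% of the G2/M list, beside 4.57% of all genes tested. The spindle checkpoint kinase BUB1 (0.75 ± 0.19) and the anaphase activator CDC20 (0.73 ± 0.20) rose, and the checkpoint protein BUB1B (-0.86 ± 0.23) and the topoisomerase TOP2A (-0.75 ± 0.19) fell, with adjusted p from 0.0336 to 0.0471. Without knockdown replicate 2 neither list had a call. When mismatch replicate 2 was left out MCM7 was called, FEN1 and CCNE1 were lost (adjusted p = 0.112 and 0.124), and other members brought the G1/S list to 3 rises and 0 falls, while of the named G2/M genes BUB1 was called and CDC20, BUB1B and TOP2A were lost.

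Among pluripotency genes few members passed. Of 25 measured genes of core pluripotency 1 rose and 1 fell, with a median of -0.07, and 8% were called beside 4.57% of all genes tested. UTF1, a chromatin-bound factor of embryonic stem cells, read 7.92 and 7.40 untreated, 8.83 and 9.40 with mismatch and 7.69 and 6.28 with the knockdown, and fell by 2.13 ± 0.43 (adjusted p = 0.0123), a call lost without mismatch replicate 2 (-1.84, adjusted p = 0.0531) and without knockdown replicate 2. The 2 knockdown arrays of UTF1 lay far apart. ZFP42, the zinc finger protein also known as REX1, read 13.64 and 13.82, then 13.14 and 13.07, and with the knockdown 13.70 and 13.83, and rose by 0.66 ± 0.17 (adjusted p = 0.0389), lost without mismatch replicate 2 (adjusted p = 0.115) and without either knockdown array. Of 14 measured naive pluripotency genes DPPA5 alone passed. Of 10 measured germline genes PIWIL2 rose and DPPA5, KIT and SOX15 fell. SOX15, a SOX-family transcription factor, read 11.10 and 10.77 untreated, 10.60 and 9.46 with mismatch and 8.35 and 8.38 with the knockdown, the knockdown arrays below all others. SOX15 fell by 1.67 ± 0.35 (adjusted p = 0.0149), and its log2 difference was -2.24 without mismatch replicate 2 (adjusted p = 0.00140). Without knockdown replicate 1 or 2 its call was lost. Without knockdown replicate 2 the germline list had 1 rise and 0 falls, and without mismatch replicate 2 it had 1 rise and 3 falls.

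The NOTCH list was divided. Of its 18 measured members 2 rose and 2 fell, all on the mismatch side, 22.2% called beside 4.57% of all genes tested. HEY1, a repressor induced by NOTCH, read 8.49 and 8.16 untreated, 6.98 and 7.18 with mismatch and 8.33 and 8.73 with the knockdown, a rise of 1.45 ± 0.30 (adjusted p = 0.0145), and HEYL of the same family rose by 1.30 ± 0.25 (adjusted p = 0.00879). HES3 fell as given above. NRARP, a feedback inhibitor of NOTCH, read 6.91 and 6.76, then 8.42 and 10.34, and with the knockdown 7.55 and 7.32. Mismatch replicate 2 was far above the other arrays, and NRARP's fall of 1.94 ± 0.43 (adjusted p = 0.0199) became -0.98 without it (adjusted p = 0.108). Without mismatch replicate 2 the list had 2 rises and 1 fall, and without knockdown replicate 2 it had 0 and 0.

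Of 31 measured neuron genes 2 rose and 2 fell, 12.9% called beside 4.57% of all genes tested. SYT11 stood first, and the synaptic vesicle protein SYP read 7.21 and 6.86 untreated, 7.70 and 8.17 with mismatch and 6.75 and 5.98 with the knockdown, a fall of 1.58 ± 0.35 (adjusted p = 0.0192) that was lost without mismatch replicate 2 or knockdown replicate 2. SYT4, another synaptotagmin, rose by 1.33 ± 0.26 (adjusted p = 0.0103) and TUBB3, the neuronal beta-tubulin, by 1.31 ± 0.27 (adjusted p = 0.0147). SYT4 read 10.50 and 10.60 untreated, 8.79 and 9.03 with mismatch and 9.998 and 10.50 with the knockdown. SYT4 and TUBB3 were thus low with mismatch, whereas SYT11 was low with the knockdown. The call of SYT4 was lost without knockdown replicate 2 (adjusted p = 0.188), and that of TUBB3 without mismatch replicate 2 (adjusted p = 0.0650) or either knockdown array. Of 21 measured neural progenitor genes 0 rose and 2 fell, HES3 and the zinc finger gene ZIC2 (-0.82 ± 0.18, adjusted p = 0.0162), whose call was lost without mismatch replicate 2 (adjusted p = 0.0526) or either knockdown array. The cadherin CDH6, the 1 called gene of 14 measured neural crest genes, read 7.07 and 6.93 untreated, 7.17 and 6.30 with mismatch and 7.97 and 8.41 with the knockdown, and rose by 1.46 ± 0.32 (adjusted p = 0.0180), a call lost without mismatch replicate 2 or knockdown replicate 2.

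Matrix and adhesion genes gave a few calls, 13.3% and 13% of these lists beside 4.57% of all genes tested. Of 30 measured collagen, laminin, integrin and matrix genes 3 rose and 1 fell: COL5A2, a fibrillar collagen (1.47 ± 0.26, adjusted p = 0.00616), the integrin subunit ITGB5 (0.87 ± 0.14, adjusted p = 0.00290), the basement membrane collagen COL18A1 (0.84 ± 0.19, adjusted p = 0.0211) and the membrane-bound metalloproteinase MMP24 (-1.44 ± 0.31, adjusted p = 0.0162). ITGB5 read 14.26 and 14.34 untreated, 13.39 and 13.42 with mismatch and 14.25 and 14.30 with the knockdown, so the knockdown arrays lay at the untreated level. Of 23 measured cadherin and adhesion genes CDH6 and CDH11 rose and CADM1 fell. CADM1, an immunoglobulin-family adhesion protein, read 8.70 and 9.01 untreated, 8.59 and 8.53 with mismatch and 6.83 and 7.06 with the knockdown. The fall of CADM1, by 1.61 ± 0.30 (adjusted p = 0.00731), lay on the knockdown side, and CADM1 differed from untreated by -1.90 (adjusted p = 0.00682). Without mismatch replicate 2 the matrix list had 2 rises and 0 falls and the adhesion list 0 rises and 1 fall, and without knockdown replicate 2 neither had any.

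Signalling and stress lists held 1 to 3 calls each, where 4.57% of all genes tested were called. The called share was 4.35% of the immediate early list, 5% of the heat shock list and 6.67% of the interferon list. It was 8.33% of the H3K9 and HP1 list, 8.7% of the p53 list and 15% of the integrated stress list. EGR1, an immediate early transcription factor, read 10.69 and 10.68 untreated, 11.70 and 11.29 with mismatch and 10.29 and 9.97 with the knockdown, and fell by 1.37 ± 0.22 (adjusted p = 0.00324), the 1 call among 23 measured immediate early and FGF-ERK feedback genes. Of 20 measured heat shock genes only HSPA1A, an inducible HSP70 with a near-identical copy, fell (-1.43 ± 0.33, adjusted p = 0.0240), and its 2 knockdown arrays read 10.35 and 8.99. The call of HSPA1A was lost without mismatch replicate 2 (adjusted p = 0.104) or knockdown replicate 2. Of 30 measured interferon and antigen presentation genes the transcription factor IRF1 rose (1.98 ± 0.49, adjusted p = 0.0357) and B2M, the light chain of MHC class I, fell (-0.80 ± 0.19, adjusted p = 0.0278). IRF1 read 7.97 and 5.80 with mismatch and 8.78 and 8.96 with the knockdown, so mismatch replicate 2 carried most of the difference, and the call was lost without it. Of 20 measured genes of the integrated stress and unfolded protein response TRIB3 and CRELD2 rose and VLDLR fell, and of 23 measured p53 targets and apoptosis genes BID rose and PMAIP1 fell, with adjusted p from 0.0199 to 0.0484. All 3 calls of the stress list were lost without mismatch replicate 2 (adjusted p = 0.185 for TRIB3, 0.119 for CRELD2 and 0.300 for VLDLR), and the list had 0 calls, while the interferon list had 0 rises and 2 falls and the p53 list 1 rise and 4 falls. Without knockdown replicate 2 these 3 lists had 0 calls, and EGR1 (adjusted p = 0.0846) was lost as well. Of 12 measured H3K9 methyltransferases and HP1 proteins UHRF1, which reads methylated H3K9 and hemimethylated DNA, rose (1.05 ± 0.22, adjusted p = 0.0139), a call lost without either knockdown array. UHRF1 read 12.12 and 12.36 untreated, 11.06 and 11.46 with mismatch and 12.31 and 12.31 with the knockdown.

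Metabolic, ribosomal and imprinted genes had next to no calls. None of 33 measured respiratory chain genes, 37 cytosolic ribosomal protein genes, 21 cholesterol genes or 22 imprinted genes passed, with medians of -0.10, -0.06, 0.20 and 0.03. At an unadjusted p under 0.05 in limma's fit these lists had 5, 4, 5 and 3 genes, where 2856 of all 13951 genes tested had such a p. Of 28 measured glycolysis and hypoxia genes the enolase ENO1 rose by 0.50 ± 0.12 (adjusted p = 0.0297), a call lost without mismatch replicate 2 (adjusted p = 0.131) or either knockdown array. Of 17 measured genes reported as targets of miR-302, the main microRNA cluster of these cells, LEFTY2 and the H3K4 demethylase KDM1A (0.67 ± 0.16, adjusted p = 0.0278) rose and 0 fell, with a median of 0.13. Without mismatch replicate 2 and without knockdown replicate 2 this list had 1 rise each.

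The response of CT2 was then set beside that of H9, measured on other arrays, where 356 genes passed between knockdown and mismatch (2.55%). In both lines 89 genes were called in the same direction, 13.9% of the CT2 calls and 25% of the H9 calls, and 4, CXCL5, SP8, ZFP42 and ACTA1, were called in opposite directions. The CT2 call of SP8 was lost whichever knockdown or mismatch array of CT2 was left out. Of the 386 rises in CT2 291 were positive in H9, with a median of 0.24, and of the 252 falls 205 were negative, with a median of -0.41. The median H9 difference of all genes tested was 0.007. Of the 103 knockdown-side genes 36 were called in H9 in the same direction, and of the 534 mismatch-side genes 53. Over all genes tested 2.55% were called in H9, in either direction. LEFTY2 also rose in H9, by 4.37, and QNG1 was at least 8.37-fold higher there, while CADM1 (-2.17), SOX15 (-3.04) and EGR1 (-2.74) also fell in H9. For these 5 genes the test of the difference between lines, given next, called nothing.

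The test of the difference itself, H9 response minus CT2 response, called 58 genes (0.416%), and 31 of them were called in CT2. CXCL5, which fell in CT2, rose by 1.96 in H9 (adjusted p = 7.40e-04), and its responses differed (adjusted p = 1.10e-06), with no size given since it was at background on both CT2 knockdown arrays. SYT11 differed by 2.90 (adjusted p = 0.00274), with -0.70 in H9 (adjusted p = 0.334). CSRP1 was at background in all H9 groups, so H9 gives no fold for it, and CYP2E1 and PIWIL2 were also at background there. MTLN and TRIM68, silent with mismatch in CT2, were detected in every H9 group, with H9 log2 differences of 0.32 and -0.30 (adjusted p = 0.756 and 0.749) and responses that differed from those of CT2 (adjusted p = 4.17e-05 and 3.42e-05), again with no size. QNG1, in contrast, was at background on both H9 mismatch and both untreated H9 arrays and was detected with the knockdown there. Without mismatch replicate 1 of CT2 the test called 530 genes, without knockdown replicate 1 it called 21 and without knockdown replicate 2 it called 26.

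**Figure D5:**
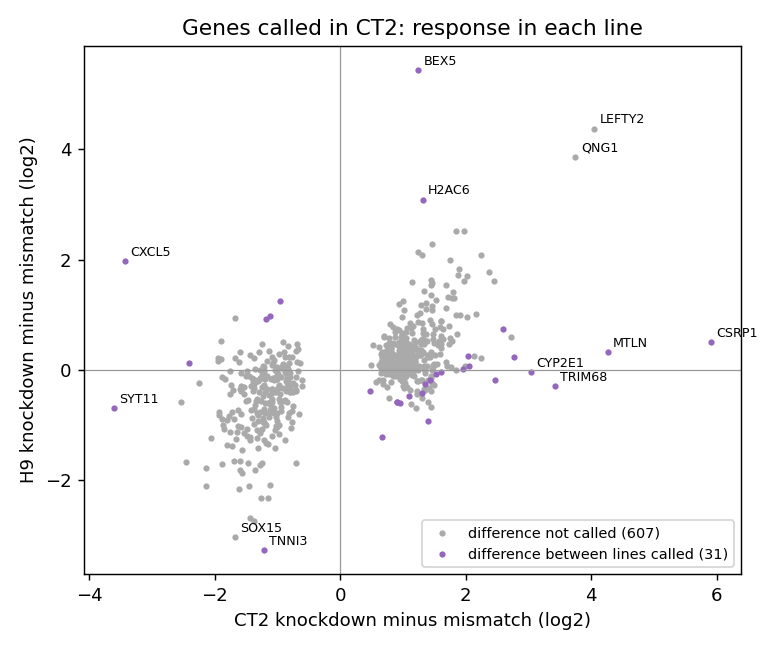
Each point is 1 of the 638 genes called in CT2, with the knockdown minus mismatch difference of log2 intensity in CT2 on the x axis and the same difference in H9 on the y axis. The 31 genes whose response differed between the lines by the test are purple, among them CXCL5 with opposite signs and CSRP1, MTLN and TRIM68 near 0 in H9, while LEFTY2 and QNG1 lie near the diagonal.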

How the data were processed

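RNA of 12 bead arrays was analysed, 2 for each of 6 groups (H9 and CT2, each untreated, with mismatch shRNA or with JMJD1C knockdown). The labels name the RNAqueous-4PCR kit for extraction, DNase I and the TotalPrep kit for labelling. Per the file headers, the deposited table holds each probe's mean signal as a non-normalized intensity. Per the file headers, a detection p-value stands beside each intensity. Per the submitters' processing notes, GenomeStudio was used (version not given in the sources used here). Beside it, the authors deposited a table of linear intensity, normalized within each line by an unnamed method, which served as an alternative.

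The 2 lines' blocks (47320 probes for H9, 47315 for CT2) were joined by their own probe identifiers, leaving 47314. Intensities were background-corrected in limma 3.58.1 under R 4.3.3 (normexp with controls inferred from detection p, offset 16), quantile-normalized over 12 arrays and log2-transformed. A probe was kept if 2 or more arrays had its detection p under 0.05, and of 25905 kept probes 19076 had 1 gene symbol, 4 several and 6825 none. The brightest probe on average stood for each of 13951 genes. The filter was passed through CT2 knockdown arrays alone by 1 gene, CYP2E1, and through CT2 mismatch arrays alone by 18, of which 4 were called. Symbols came from the platform annotation, and 13941 genes matched RefSeq's gene table by Entrez identifier. A model with 1 mean per group was fitted, with trend and robust empirical Bayes, two-sided tests and Benjamini-Hochberg adjustment over all genes, threshold 0.05. Groups share 1 spread, though replicates differed by a log2 SD of 0.6275 for CT2 mismatch, 0.3996 for knockdown and 0.3343 for untreated. On simulated data with 13951 genes and this comparison, 30% of 100 changes of 1 and 82% of 100 changes of 2 on the log2 scale were recovered, with 2 false calls. The simulated noise had the same spread in every group. These figures therefore do not measure the error of calls between groups of unequal spread, as here. The number of arrays limits the precision.

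The comparison, the genes followed and the 37 gene lists were chosen with earlier results of these data known. The genes named were the 10 largest rises and falls, the 10 largest each way on the knockdown side and 5 each way on the mismatch side, the 5 whose response differed most between lines each way, JMJD1C, and up to 4 called members of a list in each direction with the smallest p. KDM3A, KDM3B, LEFTY1, INHBE, KCNMB1, MYL7, CNN2, H2BC11, SLC7A11, FAM20A, H3C1 and ZNF707 were named after their values were seen.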

Additional observations from a re-analysis of the deposited data

Results flagged for a closer look

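For 18 genes, LCP1 and BEX5 and others named above, the response to the knockdown differed between the lines by limma's test of the difference itself (H9 minus CT2, log2 scale), which is what brought them here. The difference was negative for CSRP1 (-5.41), MTLN (-3.94), TRIM68 (-3.72), CYP2E1 (-3.08), PIWIL2 (-2.64), LRFN5 (-2.55) and LCP1 (-1.84). CSRP1, CYP2E1 and PIWIL2 were at background in every H9 group, so their differences carry the CT2 value alone. CYP2E1 also passed the filter through the CT2 knockdown arrays alone, so its difference is a description. CXCL5 with the knockdown and CSRP1, MTLN, TRIM68, CYP2E1 and PIWIL2 with mismatch were at background in CT2, so the sizes given for these genes are fitted values that rest on the background level. LCP1, an actin-bundling protein of leukocytes, read 10.38 and 10.71 on untreated CT2 arrays, 8.52 and 8.50 with mismatch and 10.94 and 11.26 with the knockdown. On untreated H9 arrays LCP1 read 8.52 and 8.20.

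Positive differences belonged to CXCL5 (5.39), BEX5 (4.19), SYT11 (2.90), NAP1L6P (2.52), SP8 (2.20) and H2AC6 (1.77). BEX5, a gene of the brain-expressed X-linked family, rose in both lines, by 1.24 in CT2 (adjusted p = 0.0380) and by 5.44 on the fitted scale in H9, where it was at background in untreated and mismatch cells. Its CT2 call was lost without mismatch replicate 2 (adjusted p = 0.250). SP8, a zinc finger transcription factor, fell by 0.96 in CT2 and rose by 1.24 in H9. Its CT2 call was lost whichever knockdown or mismatch array of CT2 was left out, with log2 differences from -1.01 to -0.91.

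Of the contractile genes ACTG2 (-1.59), ACTA1 (-1.55) and TNNI3 (-2.05) differed, with H9 responses of -0.07, -0.60 and -3.27. ZFP42 (-1.88) rose by 0.66 in CT2 and fell by 1.22 in H9, and AFP (-1.95) had an H9 response of 0.02.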

How the results depend on the processing

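All 84 named genes kept their direction under 14 alternatives. They were chosen with both knockdown arrays beyond both mismatch arrays, so leaving out 1 array could not reverse them. Array weights, leaving out the trend and robust steps, a block for replicate number and testing every kept probe also keep the fitted log2 difference as it was. In those alternatives the kept direction was fixed in advance. With no filter, or with the filter on the 4 CT2 arrays, the normalized values were the same. There a direction could change only through another choice of probe. The call was kept under every alternative by 18 genes, CYP2E1 among them. Of the 84, 54 were called without CT2 mismatch replicate 2, 80 without mismatch replicate 1, 48 without knockdown replicate 1 and 19 without knockdown replicate 2. In knockdown against mismatch, calls fell from 638 (386 higher, 252 lower) to 298 (191, 107) with the CT2 arrays alone, to 188 (128, 60) with array weights, which gave both arrays of a group the same weight, and to 341 (203, 138) with no trend and no robust step. Median scaling gave 571 calls with 147 lower, a share of 74.3% higher in place of 60.5%, as the median of all genes moved to 0.12. Mismatch-side and knockdown-side calls numbered 242 and 55 with the CT2 arrays alone, 149 and 38 with array weights, and 269 on the mismatch side with no trend. Knockdown against untreated gave 26 calls with the CT2 arrays alone, 16 with the filter on the 4 CT2 arrays and 329 with array weights, and mismatch against untreated 994 and 963 with the CT2 arrays alone and with array weights. The difference between lines gave 38 calls with no trend. The cause of these moves was not tested.

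Leaving out 1 array at a time gave 40 to 1828 calls (30 to 1196 higher, 10 to 632 lower), 27 to 1696 on the mismatch side, 13 to 132 on the knockdown side, 9 to 147 against untreated for the knockdown, 706 to 2827 for mismatch, and 21 to 530 between lines. The log2 difference of JMJD1C then ran from -1.64 to -1.32, and its call was lost at -1.45, without knockdown replicate 2. Where 1 array stood for a group, it was taken to vary like the others.

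Across genes, the deviations of same-numbered arrays correlated at -0.195 for knockdown and mismatch, 0.0914 for knockdown and untreated, and 0.0714 for mismatch and untreated. Each value rests on a single difference per group over genes that are not independent. It therefore cannot tell whether replicate numbers pair the arrays, and the main fit left them unpaired. With the replicate block there were 361 calls (225 higher, 136 lower), 293 on the mismatch side and 67 on the knockdown side, and 25 for knockdown against untreated. With the numbers of the knockdown arrays exchanged, an alternative added after seeing the data, there were 444 calls (274 higher, 170 lower). The list counts without single arrays were also added after seeing the data. Genes at background on both arrays of a group have only a bound.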
